A study of Mus musculus with 12 samples.

Results

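Fatty acid oxidation was followed through 10 genes in muscle stem cells sorted by flow cytometry from mouse tibialis anterior, gastrocnemius and quadriceps. The genes are Cpt1a, Cpt1b, Cpt2, Slc25a20, Acadm, Acadl, Acadvl, Hadha, Ech1 and Pdk4, and each was found by its symbol among the 30154 genes of the count table. They were selected on results of these same libraries: Cpt1a because it was higher in knockout cells at day 0, and Ech1 because it was lower by day 21. All 10 passed the filter on low counts, which kept 15890 genes. The study compared wild-type mice with Sestrin1,2 knockout mice, all of strain C57BL/6J and 2 to 3 months of age, before injury (day 0) and 7 and 21 days after it. Each genotype and day has 2 libraries, 12 in all. The labels name no kind of injury and no batch, and do not say whether the libraries of a group came from separate mice, so the p-values measure only the spread between these samples, which may be technical.

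Mitochondria burn long-chain fatty acids only after the acyl chain has been loaded onto carnitine at the outer membrane, carried across the inner membrane and returned to coenzyme A. The chain is then shortened in repeated rounds by acyl-CoA dehydrogenases, the trifunctional protein and accessory isomerases. Quiescent muscle stem cells are known for relying on this pathway more than cells that have entered the cycle, and pyruvate dehydrogenase kinases hold back the competing use of glucose. Sestrins are stress-induced proteins known for restraining TOR signalling and for acting on the AMP-activated kinase, which relieves the brake on carnitine loading.

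The targeted genes were read first. Sesn2 lay between 1.92 and 7.03 CPM (counts scaled to the TMM-adjusted library size) in the 4 knockout libraries of day 0 and 7 and between 44.9 and 84.3 CPM in the 4 wild-type ones. At day 21 it went against the label in 2 of 4 libraries: the library labelled knockout replicate 2 had 108 CPM and the library labelled wild type replicate 1 had 8.92 CPM, against 9.86 CPM in knockout replicate 1 and 82.1 CPM in wild type replicate 2. Sesn1 split the day 21 libraries the same way, at 67.2 and 43.7 CPM in the first pair and 41.7 and 78.3 CPM in the second. Day 21 libraries are therefore named by label below, and values that rest on the day 21 libraries are given with and without these 2 where the 2 change a call or a direction. Totals ran from 28396780 to 38950514 estimated counts per library, and the member with the fewest reads, Cpt1b, had between 94 and 1548.

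All 10 members are annotated as protein coding in GENCODE M21 on GRCm38. Cpt1a, the liver-type carnitine palmitoyltransferase and the entry gate of the pathway, spans chr19:3322334-3385733 on the plus strand. Ech1, a dienoyl-CoA isomerase for unsaturated chains, spans chr7:28825217-28832247 on the plus strand. Acadl, the long-chain acyl-CoA dehydrogenase, lies at chr1:66830839-66863277 and Pdk4, a pyruvate dehydrogenase kinase, at chr6:5483351-5496309, both on the minus strand.

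The 250 bases before the RefSeq start site (build GRCm38.p6) are shown for these 4 genes, because Cpt1a and Ech1 are the genes the set was built on and Acadl and Pdk4 had the largest tested changes between day 7 and day 21. Capitals mark, on either strand, the nuclear receptor hexamer AGGTCA, the GC box GGGCGG and the CCAAT box. The windows are chr19:3323051-3323300 (Cpt1a, plus strand), chr7:28825088-28825337 (Ech1, plus strand), chr1:66863310-66863559 (Acadl, minus strand) and chr6:5496279-5496528 (Pdk4, minus strand).
Cpt1a: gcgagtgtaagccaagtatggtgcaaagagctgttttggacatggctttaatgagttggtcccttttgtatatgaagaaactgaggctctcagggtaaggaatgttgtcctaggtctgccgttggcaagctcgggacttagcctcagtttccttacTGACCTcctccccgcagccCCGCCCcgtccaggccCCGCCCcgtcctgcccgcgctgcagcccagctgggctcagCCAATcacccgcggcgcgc
Ech1: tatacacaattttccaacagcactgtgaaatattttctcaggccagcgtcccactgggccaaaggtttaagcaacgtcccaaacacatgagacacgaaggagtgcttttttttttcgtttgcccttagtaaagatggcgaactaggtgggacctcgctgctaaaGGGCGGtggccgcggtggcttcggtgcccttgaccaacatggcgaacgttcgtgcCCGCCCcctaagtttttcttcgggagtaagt
Acadl: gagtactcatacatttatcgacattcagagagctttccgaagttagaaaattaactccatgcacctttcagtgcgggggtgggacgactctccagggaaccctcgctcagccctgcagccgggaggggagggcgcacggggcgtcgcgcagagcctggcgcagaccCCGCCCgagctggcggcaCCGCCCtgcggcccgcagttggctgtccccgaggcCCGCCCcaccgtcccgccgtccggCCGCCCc
Pdk4: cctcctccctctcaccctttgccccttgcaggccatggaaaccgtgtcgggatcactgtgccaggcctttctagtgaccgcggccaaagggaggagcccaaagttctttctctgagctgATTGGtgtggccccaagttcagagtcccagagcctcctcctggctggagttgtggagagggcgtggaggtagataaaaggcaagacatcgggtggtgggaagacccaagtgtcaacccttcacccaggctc

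RefSeq gave such a window for 9 of the 10 members. The hexamer was found in 3 of them (Cpt1a, Acadm and Acadvl), against 14% of the 32851 windows in the table. The GC box was found in 6 of 9 (Cpt1a, Cpt2, Slc25a20, Acadl, Hadha and Ech1), against 32.7% of all windows, and the CCAAT box in Cpt1a and Pdk4, against 33.8%. The direct repeat AGGTCANAGGTCA, which holds the hexamer and is the textbook element of the fatty acid receptors of the PPAR family, was in none of the 9 windows and in 0.0335% of all. In Cpt1a the hexamer begins 94 bases before the start site, on the opposite strand.

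Levels between genes were compared in TPM, the deposited measure scaled to transcript length and library. Ech1 was the most abundant member, with a median of 231 TPM over the 12 libraries (range 197 to 636), followed by Acadvl at 149.7 (139 to 198), Acadm at 98.5 (84.0 to 158) and Acadl at 94.4 (59.3 to 163). Pdk4 and Hadha had medians of 46.9 and 46.1 TPM, and Cpt1a one of 30.5 (18.1 to 52.2). Slc25a20, the carnitine-acylcarnitine carrier, had a median of 23.2 TPM, Cpt2, which returns the chain to coenzyme A, one of 13.8, and Cpt1b, the muscle-type carnitine palmitoyltransferase, one of 3.49. The ranges of all neighbours in this order overlapped, Ech1 and Acadvl only between 197 and 198 TPM. The order also differed between groups: Acadl was second at day 7, with means of 161 TPM in knockout and 151 TPM in wild type, and Pdk4 was above Acadl in both day 21 groups. Cpt1b varied most, with a highest value 19.1 times the lowest, and Acadvl least, at 1.43 times.

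Before injury every member was higher in both knockout libraries than in either wild-type library. This contrast was used to choose the set, so its values are a description without a test. All 10 members had libraries that did not overlap in this direction, where 38.0% of the 15890 genes did. The median log2 difference of the members was 0.49, beside 0.00 over all genes.

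Cpt1a had 169 and 176 CPM in the 2 knockout libraries of day 0 and 62.3 and 67.4 CPM in the wild-type ones. The groups were well apart, with a log2 difference of 1.41 (SE 0.11), a 2.66-fold higher level in knockout. Cpt1b had 47.1 and 51.0 CPM against 7.93 and 7.99 CPM, the widest gap of the set, at a log2 difference of 2.62 (SE 0.48). Outside the day 0 knockout Cpt1b did not pass 11.2 CPM in any library. Cpt1b lies wholly inside the readthrough gene Gm44502 on the same strand, whose reads cannot be told apart from its own where their exons are shared. Chkb, the gene joined to Cpt1b in that readthrough, had 69.6 and 68.6 CPM in the knockout libraries of day 0 and 60.3 and 59.0 CPM in the wild-type ones.

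Past the carnitine step, Ech1 stood highest, at 411 and 432 CPM in knockout and 235 and 244 CPM in wild type, a log2 difference of 0.82 (SE 0.08). Acadl had 144 and 149.9 CPM against 98.3 and 98.0 CPM (log2 difference 0.58, SE 0.08). Pdk4 had 104 and 99.9 CPM against 77.3 and 63.3 CPM (0.53, SE 0.11). Hadha, the alpha subunit of the trifunctional protein, Slc25a20 and Acadvl, the very-long-chain dehydrogenase, had log2 differences of 0.44, 0.40 and 0.30. Those of Cpt2 (0.21, SE 0.16) and Acadm, the medium-chain dehydrogenase (0.21, SE 0.10), were the smallest.

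**Figure D1:**
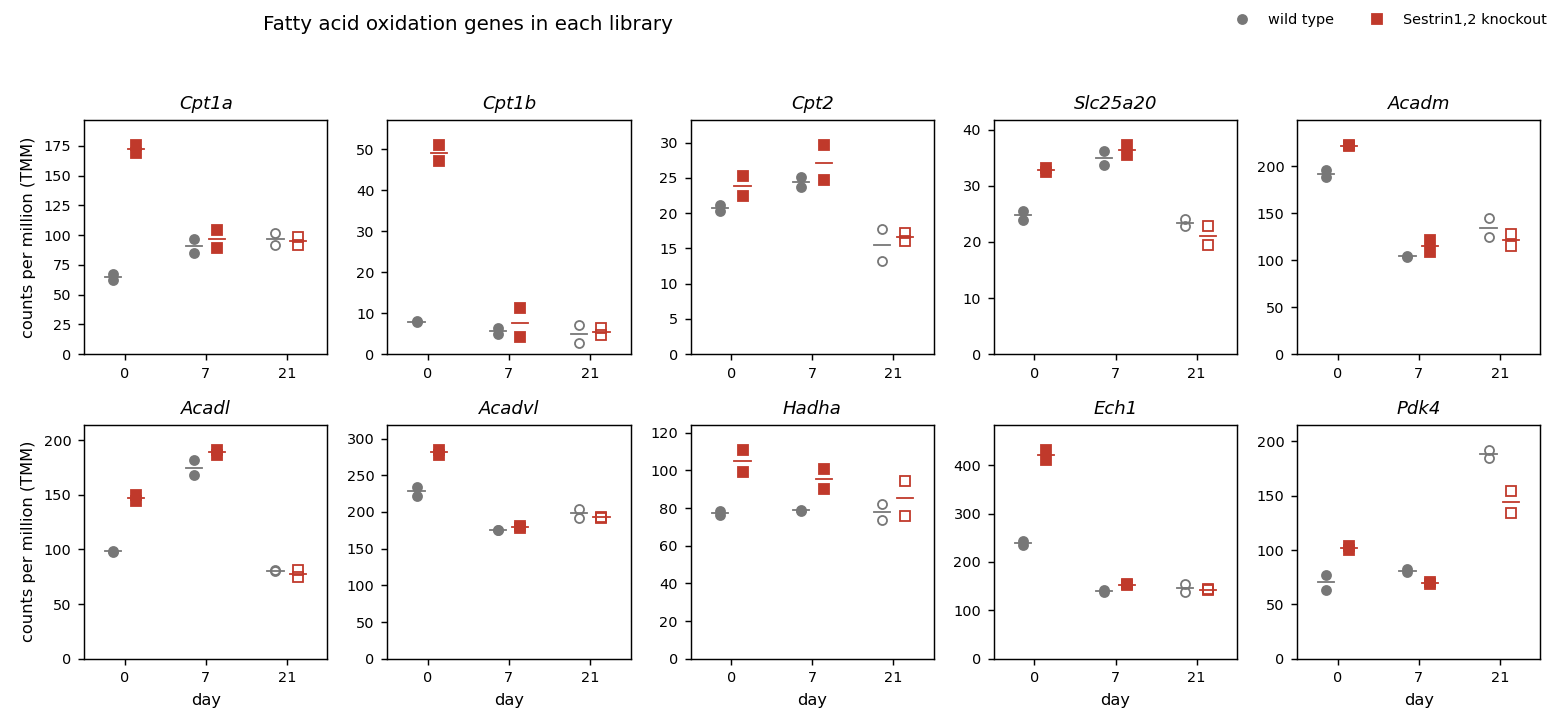
CPM with TMM scaling (vertical axis, from 0) of each of the 10 genes by day (horizontal axis). Each symbol is 1 library, grey circles wild type and red squares knockout, with open symbols at day 21, where 2 of 4 labels go against Sesn2, and a short line at the mean of the 2 libraries. Cpt1a in knockout stands at 169 and 176 at day 0, above every other library.

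The other genes of the pathway, 113 in 8 lists of which 112 were tested, leaned the same way at day 0: 31 (27.7%) passed an edgeR adjusted p of 0.05 as higher in knockout and 4 (3.57%) as lower, beside 14.8% and 12.6% of all genes. This is again a description, since the lists belong to the contrast that chose the set. The genes named in this paragraph were chosen after their values were seen. Among activation and acyl transfer genes 6 of 11 were higher, among them Acsl1 (log2 difference 0.75), which activates long chains, Crat (0.66), which moves acetyl groups onto carnitine, and the carnitine importer Slc22a5 (0.52). Among genes known as PPAR targets 7 of 19 were higher, among them Angptl4, an inhibitor of lipoprotein lipase, at 189 and 199 CPM in knockout and 59.4 and 56.4 CPM in wild type. The receptor gene Ppara was itself low, at 5.44 and 6.44 CPM against 2.97 and 2.51 CPM. In the list of other mitochondrial oxidation genes 4 of 22 were higher, including Hadhb (0.41), the beta subunit that pairs with Hadha, and none was lower. The 4 lower genes were Fabp5, Ucp2, Acsl3 and Plin3.

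Markers of other cells also differed between the day 0 groups. The 8 skin and sebaceous markers summed to 2.50 and 3.37 CPM in knockout and to 299.7 and 321 CPM in wild type, with Krt5, Krt14, Krt15 and Krt17 at 0 in both knockout libraries, and 6 of the 7 tested were lower in knockout. The 5 red blood cell markers summed to between 193 and 204 CPM in knockout and between 877 and 883 CPM in wild type, with 5 of 5 lower in knockout. The 7 cycling markers summed to between 27.9 and 28.4 CPM against 81.1 to 86.1 CPM, with 6 of 7 lower. The 10 stem cell markers had near-equal sums (2604 to 2626 against 2595 to 2628 CPM), but 7 of 10 were lower and 1 was higher, and the defining Pax7 had 10.2 and 13.9 CPM in knockout against 24.5 and 27.2 CPM in wild type. The part of these markers in the higher oxidation genes was not tested. In bulk samples fewer cells of a type and less RNA per cell cannot be told apart.

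The sums of the adipocyte and mature fibre lists were lower in the day 0 knockout than in the wild type. The 7 adipocyte markers summed to between 0.184 and 0.517 CPM there and to between 1.77 and 2.19 CPM in wild type. Plin1 and Lep were at 0 in all 4 libraries. Most of the wild-type sum was Cidea, at 1.59 and 1.32 CPM, against 0.0304 and 0 CPM in knockout. The defining Adipoq overlapped, at 0.213 and 0.0736 CPM in knockout and 0.0625 and 0.237 CPM in wild type. Of the 4 adipocyte markers tested 1 was lower and 0 were higher. The 10 mature fibre markers summed to between 83.0 and 93.5 CPM in knockout and between 122 and 133 CPM in wild type, with 3 of 10 lower and none higher by the test, and Myh4 at 4.62 and 7.44 CPM against 1.34 and 2.58 CPM. Endothelial markers were the other way, with sums of 227 to 235 CPM in knockout and 162 to 186 CPM in wild type, and 1 of 6 passed as higher. The 5 macrophage markers in the table summed to between 2898 and 2935 CPM against 1769 to 1799.6 CPM, nearly all of it Lyz2, while the defining Ptprc did not pass 0.125 CPM at day 0. The 6 fibro-adipogenic markers summed to between 6492 and 6605 CPM in knockout and between 8641 and 8782 CPM in wild type, with 2 of 6 lower. The 5 differentiation markers in the table had sums of 46.1 to 49.9 against 118 to 126 CPM, with 1 of 5 lower, and the 4 Schwann cell markers sums of 2878 to 2942 against 2448 to 2566 CPM, with 1 of 4 higher. The part of these lists was not tested either.

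At day 7 after injury the genotypes were compared through the means of libraries that did not choose the set, although the spread was estimated over all 12. By edgeR's quasi-likelihood test with adjustment over all genes, none of the 10 members was called, where 1.76% of all genes were. Adjusted p ranged from 0.326 to 0.914, and 1 member, Hadha, had an unadjusted p under 0.05. DESeq2 and limma also called none of the 10. Neither did a fit to the 4 day 7 libraries alone, chosen after seeing the data, which called 429 genes. The smallest edgeR adjusted p of a member was 0.169 there (Hadha). A fit to the day 0 and day 7 libraries called 1169 genes and none of the 10, with a smallest edgeR adjusted p of 0.0795 (Hadha).

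Cpt1a had 104 and 89.4 CPM in knockout and 96.6 and 85.4 CPM in wild type at day 7. The groups overlapped, and the log2 difference was 0.09 with a 95% interval from -0.15 to 0.33 (edgeR adjusted p = 0.795). Ech1 had 153 and 154 CPM against 137 and 142 CPM, a log2 difference of 0.14 (interval -0.04 to 0.32). Its groups did not overlap but were close, as were those of Acadm (0.15), Acadl (0.11), Acadvl (0.03) and Hadha (0.28, interval 0.01 to 0.54), all with the knockout above on counts. On TPM with a pseudocount of 1 the differences of Acadvl and Hadha were -0.03 and -0.0088, with the sign turned in both. On TPM the libraries of Ech1, Acadm and Hadha overlapped. Pdk4 lay the other way, at 68.7 and 70.7 CPM in knockout and 79.8 and 82.4 CPM in wild type, a log2 difference of -0.22 (interval -0.46 to 0.02). So 5 of 10 members lay wholly higher and 1 wholly lower in knockout on CPM, where 24.3% and 23.1% of all genes did, and none passed the test. On TPM only Acadl stayed wholly higher, while Acadvl turned wholly lower and Pdk4 stayed wholly lower. The interval of Cpt1b, from -0.61 to 1.53, was too wide to limit a difference of several fold upward. Among the other 112 tested genes of the pathway none was called at day 7 in either direction.

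Between day 0 and day 7 wild-type cells moved their acyl-CoA dehydrogenases in opposite directions. The 8 members other than Cpt1a and Ech1 were tested, and 2 rose and 2 fell, where 25.8% of all genes rose and 21.2% fell. The day 0 wild-type libraries used here are also part of the contrast that chose the set. Acadl, the long-chain enzyme, had 98.3 and 98.0 CPM at day 0 and 181 and 168 CPM at day 7, and rose by a log2 difference of 0.83 (SE 0.08; edgeR adjusted p = 2.93e-05). Acadm, the medium-chain enzyme, had 196 and 188 CPM at day 0 and 105 and 103 CPM at day 7, and fell by 0.88 (SE 0.10, adjusted p = 6.58e-05). In both genes the libraries of the 2 days were far apart.

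The carrier Slc25a20 had 24.0 and 25.6 CPM at day 0 and 36.3 and 33.8 CPM at day 7 in wild type, and rose by 0.50 (SE 0.11, edgeR adjusted p = 0.00459). Without wild-type day 0 replicate 1 its adjusted p was 0.0519. Acadvl had 222 and 234 CPM at day 0 and 175 and 176 CPM at day 7, and fell by 0.38 (SE 0.08, adjusted p = 0.00228). On TPM with a pseudocount of 1 the change of Acadvl was -0.15 with a limma adjusted p of 0.154, and that of Hadha, 0.03 on counts, was 0.52 with an adjusted p of 0.0132 at a pseudocount of 0.1. Cpt2, 0.24 on counts, was 0.54 on TPM with a pseudocount of 1 (limma adjusted p = 0.0335). TPM shifted all genes upward by a median of 0.22 in this comparison. Cpt2, Cpt1b, Hadha and Pdk4 were not called on counts, with log2 differences of 0.24, -0.50, 0.03 and 0.21.

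In knockout cells 5 of the same 8 members were called between day 0 and day 7: 1 rose and 4 fell, where 24.7% of all genes rose and 22.2% fell. This comparison shares the day 0 knockout libraries with the contrast that chose the set. Acadl had 144 and 149.9 CPM at day 0 and 191 and 186 CPM at day 7, and rose by 0.36 (SE 0.08, edgeR adjusted p = 0.00452). Acadm went from 222 and 221 CPM to 121 and 109 CPM and fell by 0.95 (SE 0.10, adjusted p = 3.53e-05). Acadvl went from 278 and 285 CPM to 178 and 180.4 CPM and fell by 0.65 (SE 0.08, adjusted p = 6.75e-05). So the directions of these 3 dehydrogenases were those of wild type. Slc25a20, called in wild type, had 33.1 and 32.5 CPM at day 0 and 35.4 and 37.2 CPM at day 7 in knockout, and was not called there, with a difference of 0.15 (edgeR adjusted p = 0.309).

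Cpt1b and Pdk4 were called in knockout and not in wild type. Cpt1b had 47.1 and 51.0 CPM at day 0 and 11.2 and 4.29 CPM at day 7 in knockout, and fell by 2.65 (SE 0.49, edgeR adjusted p = 0.00170). Without knockout day 7 replicate 1, the library at 11.2 CPM, the difference of Cpt1b was -3.51. Pdk4 had 104 and 99.9 CPM at day 0 and 68.7 and 70.7 CPM at day 7, and fell by 0.55 (SE 0.11, adjusted p = 0.00214). Whether the changes of Cpt1b, Pdk4 and Slc25a20 differ from wild type was not tested, because that difference contains the day 0 contrast.

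Cpt1a and Ech1 are given for the same step as a description. Cpt1a in wild type went from 62.3 and 67.4 CPM to 96.6 and 85.4 CPM, a log2 difference of 0.49 (SE 0.11). In knockout it went from 169 and 176 CPM to 104 and 89.4 CPM, a difference of -0.83 (SE 0.11), so that the genotypes met from opposite sides. Cpt1a and Pdk4 were the 2 members whose wild-type libraries all lay higher and knockout libraries all lower at day 7 than at day 0 on CPM, where 5.65% of all genes did so. By label Cpt1a was the 1 member with that pattern between day 0 and day 21, where 4.39% of all genes had it. Ech1 was lower at day 7 in both, by log2 differences of -0.78 in wild type and -1.46 in knockout.

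**Figure D2:**
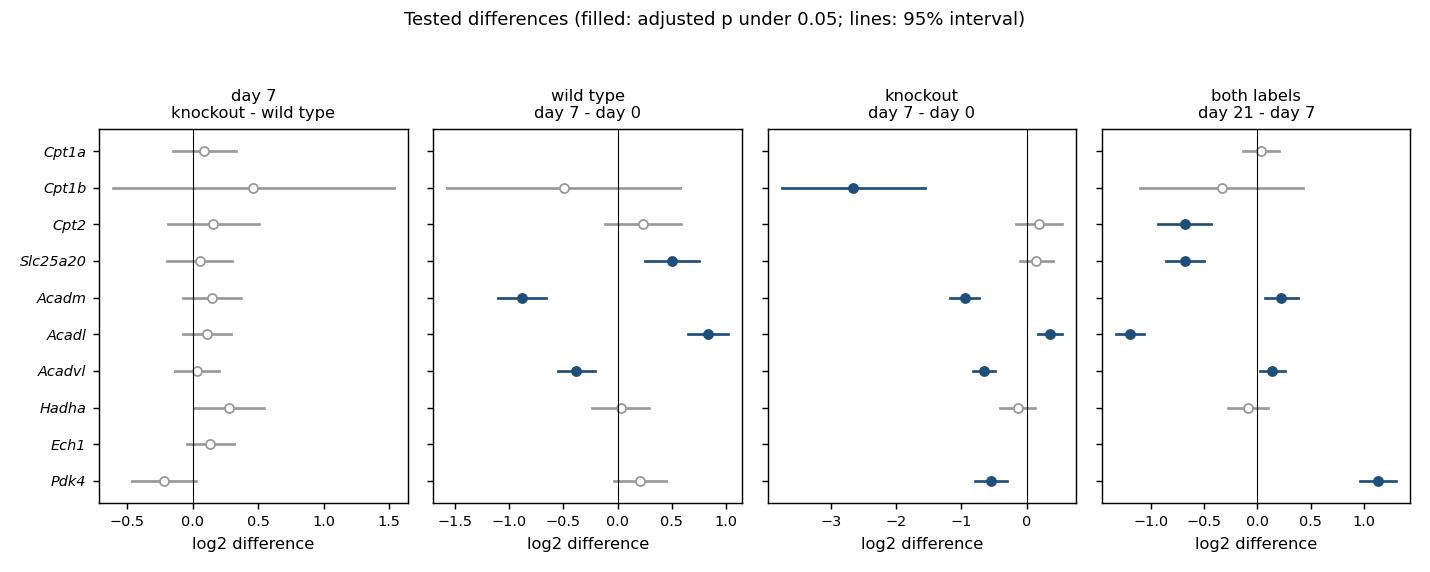
Log2 differences of the tested members (horizontal axis, points, each panel on its own scale) in 4 comparisons, with 95% intervals as lines. Filled blue points have an edgeR adjusted p under 0.05 and open grey points do not; members chosen on libraries of a comparison are left out of its panel. No point is filled in the day 7 comparison of genotypes, while Acadl and Acadm lie on opposite sides of 0 in every other panel.

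The other pathway genes turned over in both directions between day 0 and day 7. In wild type 22 of 112 rose (19.6%) and 35 fell (31.2%), and in knockout 17 rose (15.2%) and 43 fell (38.4%), beside the shares of all genes given above. Acads, the short-chain dehydrogenase, rose with Acadl, by 1.29 in wild type and 0.95 in knockout (edgeR adjusted p = 0.000366 and 0.00224). Hadhb fell in both, with differences of -0.29 in wild type and -0.67 in knockout (adjusted p = 0.0116 and 6.59e-05).

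Among the genes that activate chains or import carnitine, Acsl4, a synthetase that prefers polyunsaturated chains, rose by 1.10 in wild type and 0.71 in knockout (edgeR adjusted p = 2.93e-05 and 0.00042). Slc22a5 fell in both, with differences of -0.93 and -1.45 (adjusted p = 0.000153 and 7.72e-06). Of the regulators, the coactivator Ppargc1a (differences of -1.54 and -1.46) fell with adjusted p = 6.74e-05 and 7.28e-05, and so did Klf15, a transcription factor of fasting metabolism (-1.34 and -1.84). In the pyruvate dehydrogenase list the complex members Pdhx and Pdhb rose in both genotypes and Pdk1, a kinase of the same family as Pdk4, fell in both (-1.01 and -0.76). Of the 19 genes known as PPAR targets 2 rose and 8 fell in wild type, and 4 rose and 10 fell in knockout. Among those that rose was Angptl4, high in knockout at day 0, by 1.61 in wild type and 0.59 in knockout (edgeR adjusted p = 7.46e-05 and 0.0212).

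Muscle differentiation moved with this step. The 5 differentiation markers in the table summed to between 46.1 and 126 CPM at day 0 and between 1886 and 2210 CPM at day 7, with 5 of 5 higher in each genotype. The mature fibre sum rose to between 2096 and 4428 CPM at day 7, with 9 of 10 markers higher in wild type and 8 of 10 in knockout, and Acta1 reached 849 to 1747 CPM. Cycling markers summed to between 629 and 708 CPM at day 7, and the 4 Schwann cell markers, of which 4 fell in each genotype, summed to between 2448 and 2942 CPM at day 0 and between 289 and 439 CPM at day 7. The fibro-adipogenic sum went from between 6492 and 8782 CPM at day 0 to between 18279 and 21613 CPM at day 7. In each genotype 4 of 6 markers were higher and 1 was lower. Col3a1 carried the rise of the sum, from between 679 and 1127 CPM to between 14803 and 18103 CPM. Dcn, most of the day 0 sum, went from between 5664 and 7458 CPM to between 2537 and 3443 CPM. The macrophage sum went from between 1769 and 2935 CPM to between 269 and 406 CPM, although 4 of 5 macrophage markers rose and 1 fell in each genotype. Of the 10 stem cell markers 4 rose and 3 fell in wild type and 5 rose and 3 fell in knockout, with sums of 2595 to 2628 CPM at day 0 and 2726 to 2988 CPM at day 7. Of the 6 endothelial markers 2 fell in knockout and none in wild type. In wild type 5 of 5 red blood cell and 6 of 7 skin markers fell, and in knockout 1 of 5 red blood cell markers fell and 1 of 7 skin markers rose. The part of these lists in the changes of the oxidation genes was not tested.

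From day 7 to day 21 Acadl and Acadm again moved in opposite directions, each against its change by day 7, and Pdk4 rose. The comparison averaged both genotype labels, so that a day 21 library enters the difference with the same weight under either label, while the spread is taken within labels. Of the 9 members tested, all but Ech1, 3 rose and 3 fell, where 28.4% of all genes rose and 28.4% fell. The same 6 members were called without the 2 day 21 libraries that go against Sesn2.

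Pdk4 had between 68.7 and 82.4 CPM at day 7. At day 21 it had 155 and 134 CPM in the libraries labelled knockout and 185 and 192 CPM in those labelled wild type, and it rose by 1.13 (SE 0.08, edgeR adjusted p = 1.60e-06). All 4 day 21 libraries were above every library of day 0 and day 7. Acadl went the other way, from between 168 and 191 CPM at day 7 to 81.3, 74.5, 80.1 and 81.1 CPM at day 21, and fell by 1.20 (SE 0.06, adjusted p = 3.06e-07). On CPM its day 21 libraries were below every earlier library, while on TPM 1 of them, at 73.0, lay above a wild-type library of day 0, at 71.0.

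Of the 4 carnitine shuttle genes 2 fell, Cpt2 and Slc25a20. Cpt2 had between 23.7 and 29.6 CPM at day 7 and 17.2, 16.0, 13.3 and 17.8 CPM at day 21, and fell by 0.68 (SE 0.11, edgeR adjusted p = 0.000447). Slc25a20 had between 33.8 and 37.2 CPM at day 7 and 19.5, 22.8, 24.0 and 22.8 CPM at day 21, and fell by 0.68 (SE 0.08, adjusted p = 4.48e-05). The outer-membrane enzymes did not pass the test: Cpt1a differed by 0.03 (interval -0.14 to 0.20) and Cpt1b by -0.34 (interval -1.11 to 0.43).

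Acadm and Acadvl rose slightly. Acadm had between 103 and 121 CPM at day 7 and 128, 115, 124 and 144 CPM at day 21, and rose by 0.23 (SE 0.07, edgeR adjusted p = 0.0190). Acadvl had between 175 and 180.4 CPM at day 7 and 192, 194, 204 and 192 CPM at day 21, and rose by 0.14 (SE 0.05, adjusted p = 0.0465). Not every setting kept these calls: Acadm was called in 15 and Acadvl in 11 of 22 other settings, always with the same sign. Acadm lost its call without knockout day 7 replicate 2, either wild-type day 7 replicate or wild-type day 21 replicate 2, with edgeR adjusted p from 0.0513 to 0.0698. Acadvl lost its call without knockout day 0 replicate 1, any of the 4 day 7 libraries or wild-type day 21 replicate 1, with adjusted p from 0.0536 to 0.118.

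Between the day 21 libraries by label none of the 9 tested members was called by edgeR, where 0.0126% of all genes, 2 in number, were called. Adjusted p ranged from 0.195 to 0.956, and Pdk4 alone had an unadjusted p under 0.05, with a log2 difference of -0.39 (knockout minus wild type by label). Cpt1a had 98.6 and 91.8 CPM in the libraries labelled knockout and 102 and 91.6 CPM in those labelled wild type. Without the 2 libraries that go against Sesn2, 1 library per label was left, and the test then assumes that it varies like the other groups. The log2 differences of that pair were 0.11 for Cpt1a, against -0.02 with all 4 libraries, -0.11 for Hadha, against 0.12, and -0.31 for Pdk4. The sign turned in 6 of the 9 members, none of them called.

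Against day 0, the day 21 values are a description for all members, since that contrast served to choose Ech1. Ech1 had 144, 141, 139 and 154 CPM in the 4 day 21 libraries, below the 235 and 244 CPM of wild type and the 411 and 432 CPM of knockout at day 0. The log2 difference over both labels was -1.14 (SE 0.06), and -1.09 without the 2 libraries that go against Sesn2. On CPM the day 21 libraries of 6 members all lay below those of day 0 (Ech1, Cpt1b, Cpt2, Acadm, Acadl and Acadvl), where 15.0% of all genes did. On TPM 3 of these, Ech1, Cpt2 and Acadm, did so and the other 3 overlapped. Pdk4 alone lay above, with a difference of 0.96, where 15.6% of all genes did, and Cpt1a, Slc25a20 and Hadha overlapped.

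Across the 6 groups, Cpt1a was highest in the day 0 knockout (169 and 176 CPM) and lowest in the day 0 wild type (62.3 and 67.4 CPM), and the 4 groups after injury overlapped one another between 85.4 and 104 CPM. Ech1 had the same top group, then the day 0 wild type, and 4 groups after injury between 137 and 154 CPM. Pdk4 had its own order, with the 4 day 21 libraries on top, then the day 0 knockout.

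Of the other 112 pathway genes 37 rose (33%) and 33 fell (29.5%) between day 7 and day 21 over both labels, near the 28.4% of all genes in each direction. Acads fell with Acadl, by 1.56 (edgeR adjusted p = 7.02e-06), and the electron carriers Etfa and Etfb, which take the electrons of the dehydrogenases, fell with log2 differences of -0.60 and -0.63 (adjusted p = 1.96e-05 and 2.97e-05). Pdhb and Pdhx fell (-0.66 and -0.71), while Pdk1 and the phosphatase Pdp2 rose by 0.76 and 1.63. Slc22a5 rose by 1.48 (adjusted p = 6.84e-07), as did Foxo1, a transcription factor of fasting and quiescence, by 1.05 and Klf15 by 1.40 (adjusted p = 2.50e-05 and 2.71e-05). Over the same step all 5 differentiation markers in the table and 7 of 10 fibre markers fell, as did 7 of 7 cycling and 4 of 5 macrophage markers. All 4 Schwann cell markers, all 5 red blood cell markers and 5 of 7 skin markers rose. Of the 10 stem cell markers 6 rose and 3 fell, and 2 of 6 endothelial and 2 of 6 fibro-adipogenic markers rose, with 1 of the latter lower. Of the 4 adipocyte markers tested 1 rose and 0 fell. The adipocyte sums were 0.390 to 0.694 CPM at day 7 and 0.236 to 3.65 CPM at day 21. The part of these markers was not tested.

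**Figure D3:**
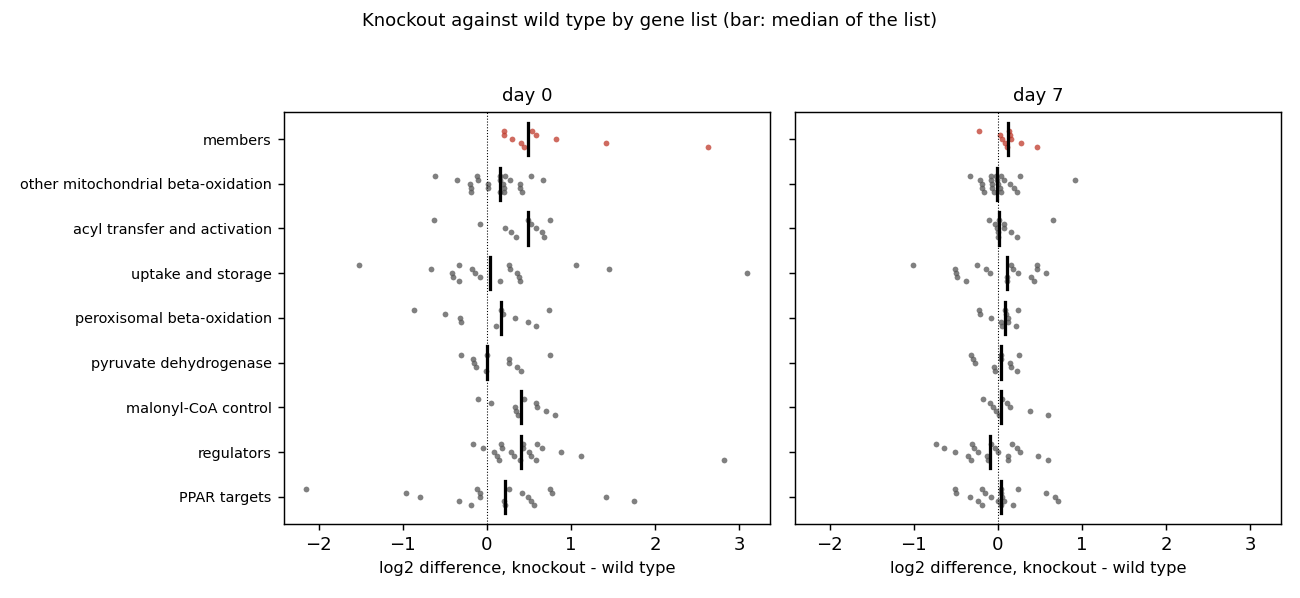
Log2 differences between knockout and wild type (horizontal axis) of the 10 members (red) and of the other pathway genes by list (grey), at day 0 (left) and day 7 (right). Each point is 1 gene, a gene in 2 lists is drawn in both, and bars mark the median of a list. The median of the members is 0.49 at day 0 and 0.12 at day 7.

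The genes whose log2 CPM followed Cpt1a most closely over the 12 libraries, of 12614 compared, were Cog1 (Pearson r = 0.94), Mkrn2 (0.93), AI429214 (0.92), Plec (0.91) and Strn4 (0.90). For Ech1 they were Hadhb (0.98), Becn1, Hspb6, Fbxo9 and Htra1 (each 0.97). Among the members Ech1 was nearest to Acadvl (0.96), Acadm (0.93) and Cpt1b (0.90), and Cpt1a to Cpt1b (0.72) and Hadha (0.70). These values describe 12 libraries in 6 groups, share the contrast that chose the set, and carry no test.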

How the data were processed

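The authors deposited estimated counts per gene, the same genes in TPM, and a table of 21782 genes on a log2 scale (regularised log values corrected for a batch that the labels do not name). Per the submitters' processing notes the tool was kallisto 0.46.1 and the builds named are mm10 and GRCm38.p6. Per the labels' protocols, RNA of sorted cells was made into cDNA with SMART-Seq v4, which does not keep strand, and into Nextera XT libraries. Reads of genes that overlap on opposite strands (Acadvl with Dvl2, Hadha with Garem2) therefore cannot be told apart where their exons overlap.

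Estimated counts were rounded, filtered with filterByExpr and scaled by TMM, and 1 mean per group was fitted with edgeR 4.0.16 (robust quasi-likelihood) in R 4.3.3 on all 12 libraries, with 6 residual degrees of freedom. P-values were adjusted by Benjamini-Hochberg over 15890 genes and called under 0.05. Alternatives used DESeq2 1.42.0 and limma 3.58.1. Values in CPM carry the TMM scaling. SE is the log2 difference over the root of the F statistic, and intervals are 95%. Day 21 libraries were called against label where Sesn2 lay nearer the other genotype's mean of day 0 and 7. Figures were drawn with matplotlib.

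Named genes were all members, up to 3 called genes each way per list and tested comparison with the smallest adjusted p, and the 5 genes most correlated with Cpt1a and with Ech1 that have a mean of at least 1 CPM. The members and lists were chosen with earlier results of these data known. The fits were tested on simulated data. A gene that the naming rule also takes is not reported here, though the list counts include it.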

Additional observations from a re-analysis of the deposited data

Results flagged for a closer look

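In 2 members the wild-type and the knockout libraries moved in opposite directions between day 0 and day 7, every library of one genotype upward and every library of the other downward. In both the wild-type libraries went up and the knockout libraries down, as in 5.65% of all genes tested. For Cpt1a the change in knockout minus that in wild type was -1.32 on the log2 scale, and for Pdk4 it was -0.75. The wild-type part of the Pdk4 value, 0.21, did not pass its test (edgeR adjusted p = 0.149) and ran from 0.0536 without wild-type day 0 replicate 2 to 0.34 without replicate 1. On the batch-corrected values the wild-type Pdk4 libraries overlapped, at 11.12 and 11.30 on day 0 and 11.37 and 11.26 on day 7 (log2 scale). By label, Cpt1a showed the same between day 0 and day 21, at -1.43, where 4.39% of all genes did, though 2 of the 4 day 21 labels go against Sesn2. On CPM all 4 day 21 libraries of Cpt1a, at 91.6 to 102, lay between the wild-type and the knockout libraries of day 0, whichever label they carry. None of these differences was tested, because each contains the day 0 contrast that chose the genes.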

How the results depend on the processing

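Cpt1a at day 0 differed by 1.31 on the batch-corrected log2 values in place of 1.41, and by 1.36 to 1.48 when 1 library was left out. Ech1 at day 21 against day 0 differed by -1.04 on the batch-corrected values and by -0.98 on TPM at either pseudocount (1 or 0.1) and with or without the filter on low values, in place of -1.14; the cause was not tested. The counts of called members stayed within 1.5 times under every alternative run: 0 at day 7 between genotypes, 3 to 5 between day 0 and 7 in wild type, 5 in knockout, 4 to 6 between day 7 and 21, and 0 between the day 21 labels. The uncalled day 7 values of Cpt1a and Cpt1b changed sign without knockout day 7 replicate 1; with each library left out in turn they ran from -0.027 to 0.19 and from -0.40 to 0.99.

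Other member values changed sign without being called in the turned sign. On TPM at a pseudocount of 1, with or without the filter, and at 0.1, day 7 values were -0.0257 and -0.0258 for Acadvl and -0.0088 and -0.009 for Hadha, that of Cpt1a between day 7 and 21 was -0.0361 and -0.0371, and differences between the day 21 labels were 0.0183 and 0.0189 for Cpt1a, 0.0654 and 0.0664 for Acadl and 0.0181 and 0.0182 for Acadvl (Acadl on batch-corrected values 0.0195). From day 0 to 7 in wild type Hadha was -0.0103 with DESeq2, -0.0104 with its size factors, -0.0154 with day 0 and day 7 libraries alone, and -0.007 to 0.0375 when 1 library was left out. Without the 2 day 21 libraries Cpt1b between day 7 and 21 was 0.0497, and the differences between labels were 0.1144 (Cpt1a), -0.1579 (Cpt1b), -0.0394 (Cpt2), 0.0128 (Acadl), 0.0101 (Acadvl) and -0.1116 (Hadha). With 1 library left out, values between day 7 and 21 ran from -0.0226 to 0.0889 (Cpt1a), -0.7594 to 0.0927 (Cpt1b) and -0.1474 to 0.0076 (Hadha). Between the day 21 labels they ran from -0.097 to 0.0591 (Cpt1a), -0.3719 to 0.9915 (Cpt1b), -0.0941 to 0.3226 (Cpt2), -0.1249 to 0.0091 (Acadl), -0.0836 to 0.0115 (Acadvl) and -0.0472 to 0.2627 (Hadha). The cause was not tested.

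Over all genes the day 7 count of 280 became 760 with DESeq2, 825 on batch-corrected values, 1169 with day 0 and day 7 libraries alone, 429 with day 7 libraries alone, 1136 without the 2 day 21 libraries, and 138, 110 and 101 on TPM, and ran from 15 (without wild-type day 7 replicate 1) to 619 when 1 library was left out. The 2 genes called between day 21 labels became 429 with DESeq2, 1200 without the 2 day 21 libraries (1 library a label), 176 on batch-corrected values, 57 without the filter, 23 with at least 10 counts in every library, 14 on unfiltered TPM, 0 at a pseudocount of 0.1, and 0 to 865 when 1 library was left out. On TPM 69.7% of the genes called between day 0 and 7 in wild type were higher, in place of 54.9%.

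The replicate numbers were not found to pair the libraries: the deviations of same-numbered libraries correlated between -0.14 and 0.07 over 15 pairs of groups, 0 of them over 0.1. With the replicate block 204 genes were called at day 7 in place of 280, and 5 members in place of 6 between day 7 and 21; Acadvl then had an adjusted p of 0.0624 by edgeR. With 2 libraries a group, the intervals at day 7 leave differences of up to 0.33 (Cpt1a) and 1.53 (Cpt1b) on the log2 scale undetected.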
